A study of Mus musculus with 31 samples.

Results

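The signals of 6 miRNAs known from smooth muscle and fibroblasts, mmu-miR-143-3p, mmu-miR-145-5p, mmu-miR-199a-3p, mmu-miR-199a-5p, mmu-miR-199b-5p and mmu-miR-214-3p, were followed in mouse lung during cigarette smoke exposure. They were taken by their names in the array files (the prefix mmu, for mouse, is left off below), with all their probes, 12 of the 1857 probes and 6 of the 650 miRNAs on the array. The lungs came from female BALB/c mice, an inbred strain, kept in cigarette smoke or in room air, with exposures of 4, 6, 8 and 12 weeks. Total RNA of whole lung, labelled with Cy3, was hybridised to 1-colour Agilent miRNA arrays. Each of the 8 groups has 4 arrays, except the 12 weeks smoke group with 3, which gives 15 smoke and 16 control arrays. The sources used here give no age of the mice and no cigarette dose. They do not say whether each array is a separate animal, so the p-values cover only the spread among these arrays, part or all of which may be technical.

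MiRNAs are short RNAs that pair through their seed, bases 2 to 8, with messenger RNAs and lower their output. MiR-143 and miR-145 are cut from a shared primary transcript and are best known from vascular and airway smooth muscle, where they help to keep cells contractile. MiR-199a and miR-214 share another transcript, Dnm3os, an antisense RNA inside the dynamin gene Dnm3 that is active in mesenchymal cells. A further copy of the miR-199a hairpin lies inside Dnm2, and the related Mir199b hairpin lies inside Dnm1, all in RefSeq's gene annotation. MiR-199a-5p and miR-214-3p are known from work on fibroblast activation and fibrosis. A hairpin gives a 5p and a 3p arm, and miR-199a-5p and miR-199b-5p belong to the same seed family.

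RefSeq's mature entries on build GRCm38.p6 matched 3 of the 6 miRNAs. MiR-143-3p, miR-145-5p and miR-199b-5p are named only. The mature sequences are shown because the results compare arms of shared and of related hairpins, with the seed in capitals.
miR-199a-5p: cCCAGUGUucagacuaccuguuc
miR-199a-3p: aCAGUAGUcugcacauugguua
miR-214-3p: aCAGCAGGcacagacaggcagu
Mir199b hairpin: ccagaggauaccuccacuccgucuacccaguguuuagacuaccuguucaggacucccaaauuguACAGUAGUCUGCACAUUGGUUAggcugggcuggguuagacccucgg
In the Mir199b hairpin (chr2:32318460-32318569, plus strand) the capitals mark its 3p arm, miR-199b-3p. MiR-199a-5p lies at chr1:162217844-162217866 on the plus strand and at chr9:21496537-21496559 on the minus strand, and miR-199a-3p at chr1:162217883-162217904 and chr9:21496498-21496519 on those strands. The miR-199a-3p sequence is also that of miR-199b-3p (chr2:32318524-32318545), so a probe for it cannot separate the 3 loci. MiR-214-3p lies at chr1:162223438-162223459 on the plus strand, with 5444 bases between its hairpin and that of Mir199a-2. The printed matures have 3 distinct seeds. The lower-case part of the Mir199b hairpin holds a stretch nearly identical to miR-199a-5p. How far the array's probes separate miR-199a-5p from miR-199b-5p was not tested.

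All 6 miRNAs were above background on 31 of 31 arrays, and none was saturated. Each array was divided by the 75th percentile of its probes that were detected everywhere, and values are log2 of that scaled signal for the brightest of a miRNA's 2 probes. They compare groups within a miRNA and do not compare miRNAs with each other. All 6 are among the 272 miRNAs that passed the detection filter. A miRNA is said to have risen or fallen at an adjusted p of 0.05 or less over the 272 (limma, Benjamini-Hochberg). In whole lung RNA, fewer cells of a type and less RNA per cell cannot be told apart. On each of the 4 slides the smoke arrays occupy the upper line of positions and the control arrays the lower, with a column per duration, so array position and exposure cannot be told apart.

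MiR-199b-5p was lower with smoke at every duration. At 4 weeks the control arrays read 0.86, 0.88, 0.77 and 0.76 and the smoke arrays 0.71, -0.36, 0.19 and 0.61. Every smoke array was below every control array, and smoke arrays 2 and 3 lay far below the other smoke arrays. At 6 weeks the control arrays read 0.84, 0.83, 0.50 and 0.56 and the smoke arrays 0.49, 0.47, 0.40 and 0.49. The groups again did not overlap, although the lowest control array lay just above the highest smoke arrays. At 8 weeks the control arrays read 0.87, 0.99, 0.87 and 0.91 and the smoke arrays 0.65, 0.65, 0.54 and 0.45. At 12 weeks the control arrays read 0.72, 0.95, 0.82 and 0.82 and the 3 smoke arrays 0.49, 0.41 and 0.44. The groups did not overlap at these durations either. Among the 272 miRNAs, smoke lay below control without overlap for 6.25%, 3.31%, 12.1% and 25.4% at 4, 6, 8 and 12 weeks. MiR-199b-5p was the only miRNA of the 272 (0.368%) for which this held at all 4 durations. The opposite, smoke above control at all 4, held for 5 miRNAs (1.84%): miR-21-5p, miR-34a-5p, miR-132-3p, miR-135b-5p and miR-146b-5p, named after their values were seen.

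**Figure D1:**
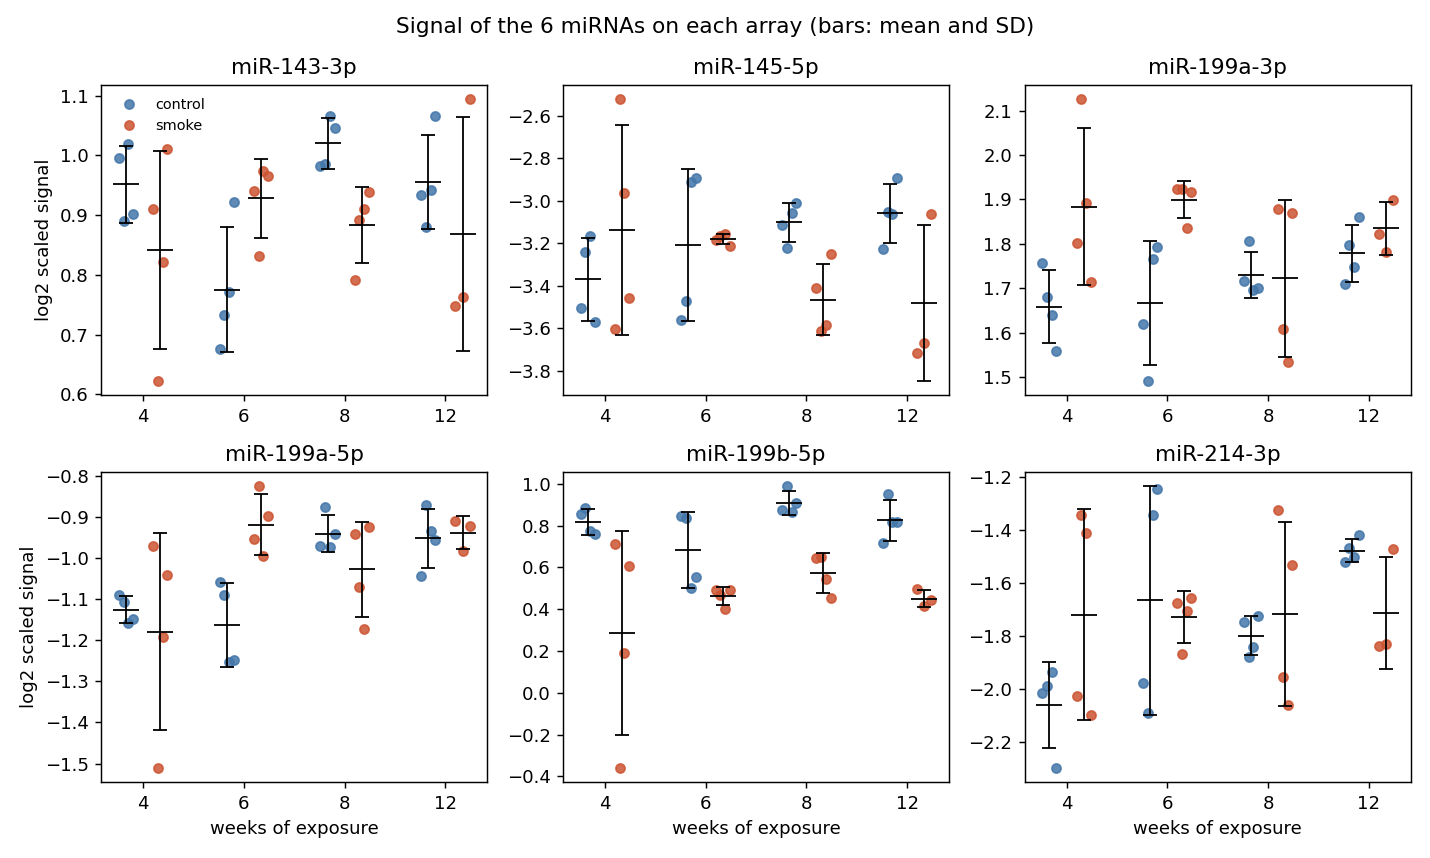
Log2 scaled signal of each array for the 6 miRNAs, by weeks of exposure, with control in blue and smoke in red. Each point is an array and the bars give the group mean and SD (n = 4, and 3 for 12 weeks smoke). MiR-199b-5p is the panel in which the red points lie below the blue points at each duration, and the vertical scales differ between panels.

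Averaged over the durations with equal weight, miR-199b-5p fell by 0.37 ± 0.07 on the log2 scale (model SE, adjusted p = 0.000222), which is 1.29-fold lower, with a 95% interval of -0.51 to -0.22. All 15 smoke arrays were below the control mean of their own duration, and 10 of 15 were below each of the 16 control arrays. By duration it fell at 4 weeks (-0.53 ± 0.14, adjusted p = 0.00754). The differences of -0.22 (0.403), -0.34 (0.124) and -0.37 (0.109) at 6, 8 and 12 weeks did not pass. The test for a smoke difference that changes with duration gave an adjusted p of 0.521 for it. The order of its group means put the 4 control groups first, at 0.91 (8 weeks), 0.82 (12 weeks), 0.82 (4 weeks) and 0.68 (6 weeks), then the smoke groups at 0.57 (8 weeks), 0.46 (6 weeks), 0.45 (12 weeks) and 0.29 (4 weeks). Of the 7 gaps between neighbours in that order, 1 exceeded the larger SD of the groups beside it, that between 8 and 6 weeks smoke.

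The size at 4 weeks rested on smoke arrays 2 and 3. Without them the difference was -0.16 (adjusted p = 0.336), while the average over durations was -0.27 (adjusted p = 4.61e-06). The 4 weeks call was lost in 7 of 18 alternatives, with values from -0.63 to -0.16. Left out singly, no array ended the call of the average (-0.40 to -0.31) or that at 4 weeks (-0.67 to -0.32). The groups share an estimate of the spread, and without smoke array 2 of 4 weeks alone the differences at 8 and 12 weeks passed at the same size (adjusted p = 0.00910 and 0.00964). Without smoke arrays 2 and 3 those at 6, 8 and 12 weeks all passed (adjusted p = 0.0365, 0.00177 and 0.00110). Within slides the mean difference was -0.30, -0.59, -0.34 and -0.22, and the smoke array was lower in each of the 15 pairs of the same slide and duration. The dimmer probe of miR-199b-5p gave -0.48 for the average. Without scaling between arrays the average was -0.51 and did not pass (adjusted p = 0.0966).

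MiR-199a-5p, of the same seed family, did not pass in any comparison. At 4 weeks its control arrays read -1.09, -1.11, -1.16 and -1.15 and its smoke arrays -0.97, -1.51, -1.19 and -1.04. The smoke arrays spread to both sides of the control arrays. At 6 weeks the control arrays read -1.06, -1.09, -1.25 and -1.25 and the smoke arrays -0.95, -0.82, -0.995 and -0.90, so smoke lay above control without overlap (15.8% of the 272 did so). At 8 weeks control read -0.97, -0.88, -0.97 and -0.94 against smoke at -0.94, -1.07, -1.17 and -0.92. At 12 weeks control read -1.04, -0.87, -0.93 and -0.96 against smoke at -0.91, -0.98 and -0.92. The groups overlapped at both of these durations. The average was 0.03 ± 0.04 (adjusted p = 0.634; 95% interval -0.06 to 0.12), and the 6 weeks value, 0.24 ± 0.08, had an adjusted p of 0.0660, which became 0.0450 without smoke array 1 and 0.00842 without smoke array 2 of 4 weeks. None of its 7 neighbouring gaps between group means, which ran from -0.92 (6 weeks smoke) to -1.18 (4 weeks smoke), exceeded the larger SD.

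Because a scaling factor cancels within an array, miR-199b-5p minus miR-199a-5p was taken on each array. In the control groups this difference was 1.95, 1.99, 1.93 and 1.91 at 4 weeks, 1.90, 1.92, 1.75 and 1.80 at 6 weeks, 1.84, 1.86, 1.84 and 1.85 at 8 weeks and 1.76, 1.82, 1.75 and 1.77 at 12 weeks. In the smoke groups it was 1.68, 1.15, 1.38 and 1.65, then 1.44, 1.29, 1.40 and 1.39, then 1.59, 1.72, 1.71 and 1.38, and at 12 weeks 1.40, 1.40 and 1.37. The highest smoke array, at 1.72, lay below the lowest control array, at 1.75, so all 15 smoke arrays were below all 16 control arrays. How many other pairs of tested miRNAs separate in this way was not counted, so the separation is not shown to be particular to this pair. The smoke minus control change averaged -0.40 ± 0.04 (SE), with -0.48, -0.47, -0.25 and -0.39 at 4, 6, 8 and 12 weeks. A two-sided permutation test within durations (100000 resamples) gave p = 1e-05, the smallest they can give, and 2.5e-05 after Benjamini-Hochberg adjustment over 5 such pairs. It was negative in all 15 pairs of a slide, at -0.35, -0.49, -0.36 and -0.38 by slide. The test shows unequal change of these probes' signals, not which of them changed.

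**Figure D2:**
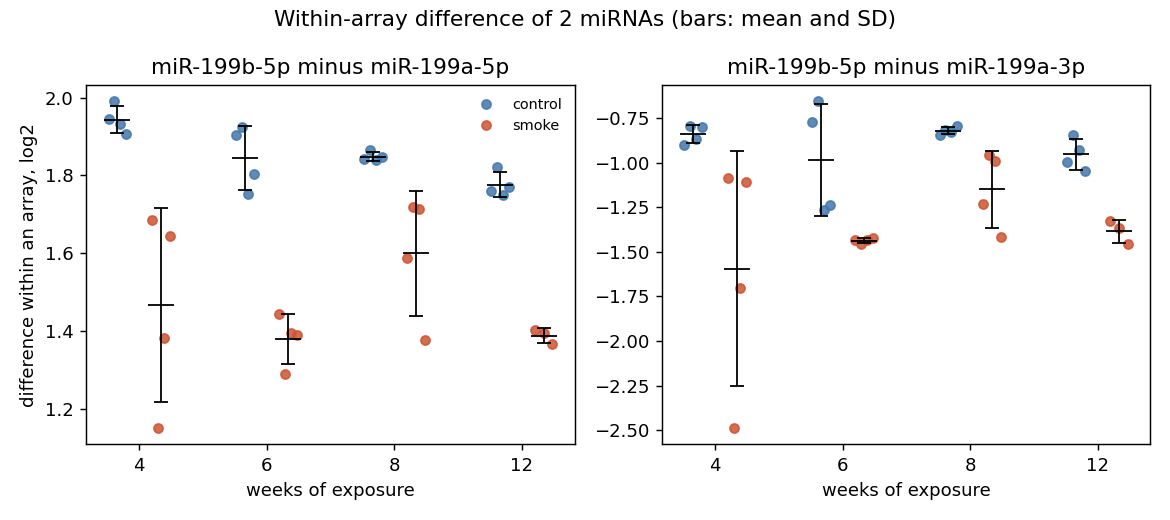
Difference between miR-199b-5p and miR-199a-5p (left) and between miR-199b-5p and miR-199a-3p (right) within each array, in log2 units, by weeks of exposure, with group means and SD. On the left the 15 smoke arrays, 1.15 to 1.72, lie below the 16 control arrays, 1.75 to 1.99; on the right 10 of the 15 smoke arrays lie below every control array.

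MiR-199a-3p rose by 0.13 ± 0.04 on the log2 scale averaged over durations (adjusted p = 0.0259), a 1.09-fold difference with a 95% interval of 0.04 to 0.21. Of the 15 smoke arrays, 13 were above the control mean of their duration. It rose at 4 weeks (0.22 ± 0.08, adjusted p = 0.0385), where control read 1.76, 1.68, 1.64 and 1.56 and smoke 1.80, 2.13, 1.89 and 1.71. A single smoke array, the fourth, lay inside the control range. The median difference at 4 weeks was 0.17 for all tested miRNAs and 0.23 for those detected on every array. The 4 weeks rise of miR-199a-3p was thus of about the size of that general shift. At 6 weeks control read 1.62, 1.49, 1.77 and 1.79 and smoke 1.92, 1.92, 1.84 and 1.92, without overlap (15.8% of the 272 had smoke higher so), yet the difference of 0.23 did not pass (adjusted p = 0.0901). At 8 weeks (-0.01, adjusted p = 0.999) and 12 weeks (0.06, adjusted p = 0.75) the groups overlapped. Within slides the averages were 0.13, 0.18, 0.05 and 0.15, and its dimmer probe gave 0.16. The direction of the average depended on scaling: it was -0.02 (adjusted p = 0.936) without any, while the median of all tested miRNAs moved from -0.01 to -0.15. The call of the average was also lost with the scanner's summed signal per miRNA (0.07, adjusted p = 0.215), with normexp background correction (0.16, 0.353), without the detection filter (0.13, 0.0564) and without smoke arrays 2 and 3 of 4 weeks (0.10, 0.0613). That at 4 weeks was lost in 12 of 18 alternatives, among them those arrays left out (0.10, adjusted p = 0.605), the leading component of the miRNAs detected on every array as a covariate (0.01, 0.937) and the slide as a block (0.22, 0.0551). Leaving out any 1 of control arrays 2, 3 and 4 or of smoke arrays 2 and 3 of 4 weeks ended the 4 weeks call too (adjusted p = 0.0533, 0.0679, 0.118, 0.218 and 0.0801). The 6 weeks difference passed without smoke array 2 of 4 weeks (adjusted p = 0.0395). MiR-199b-5p minus miR-199a-3p changed by -0.49 ± 0.10 with smoke (permutation p = 1e-05, adjusted p = 2.5e-05), and miR-199a-3p minus miR-199a-5p by 0.10 ± 0.06 (permutation p = 0.119, adjusted p = 0.198). The latter pair passed in 3 alternatives and kept its label in 12. The 3 were quantile scaling (0.17, permutation, adjusted p = 0.00905), the dimmer probes (0.14, 0.0312) and the authors' table (0.18, 0.000583).

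MiR-214-3p did not pass in any comparison. Its control arrays ran from -2.30 to -1.25 with a median of -1.80, and its smoke arrays from -2.10 to -1.33 with a median of -1.71. The groups overlapped at each duration. In the 4 weeks smoke group arrays 1 and 4 read -2.03 and -2.10 and arrays 2 and 3 read -1.34 and -1.41, and the 6 weeks control group was split in a like way, at -1.98 and -2.09 against -1.35 and -1.25. The average was 0.03 ± 0.09 (adjusted p = 0.841; 95% interval -0.16 to 0.22), with values between -0.24 (12 weeks) and 0.34 (4 weeks). The 4 weeks value passed without smoke array 4 (0.47, adjusted p = 0.0407). MiR-214-3p minus miR-199a-5p changed by 0.00 ± 0.12 with smoke (permutation p = 0.992).

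MiR-143-3p had the narrowest spread of the 6, with an SD over the 31 arrays of 0.118 log2, at the 5.51 percentile of the SDs of the tested miRNAs. Its control arrays ran from 0.68 to 1.07 with a median of 0.94, and its smoke arrays from 0.62 to 1.09 with a median of 0.91. The average difference was -0.05 ± 0.04 (adjusted p = 0.412; 95% interval -0.13 to 0.04), and it passed with the scanner's summed signal (-0.11, adjusted p = 0.0450). At 8 weeks control read 0.98, 0.99, 1.07 and 1.05 and smoke 0.79, 0.89, 0.91 and 0.94, without overlap (smoke was lower so for 12.1% of the 272), and the difference of -0.14 had an adjusted p of 0.302. At 6 weeks the difference had the other sign, 0.15 (0.285), and neither value passed.

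MiR-145-5p, its partner on the transcript, also did not pass. Its control arrays ran from -3.57 to -2.89 with a median of -3.14, and its smoke arrays from -3.72 to -2.52 with a median of -3.25. At 8 weeks control read -3.11, -3.22, -3.06 and -3.01 and smoke -3.41, -3.61, -3.58 and -3.25, without overlap (12.1% of the 272 did so), with a difference of -0.36 (adjusted p = 0.236). At 12 weeks control read -3.23, -3.05, -3.06 and -2.89 and smoke -3.72, -3.67 and -3.06, so the third smoke array lay within the control range, and the difference was -0.42 ± 0.20 (adjusted p = 0.178). The highest and the lowest of its smoke arrays at 4 weeks, -2.52 and -3.60, both lay outside the control range. The average was -0.13 ± 0.09 (adjusted p = 0.334; 95% interval -0.33 to 0.06), and it passed without smoke arrays 2 and 3 of 4 weeks (-0.23, adjusted p = 0.0256) and with the leading component as a covariate (-0.24, 0.000106). MiR-143-3p minus miR-145-5p changed by 0.09 ± 0.10 with smoke (permutation p = 0.447, adjusted p = 0.559), and by 0.21 without smoke arrays 2 and 3 of 4 weeks (permutation, adjusted p = 0.0037).

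**Figure D3:**
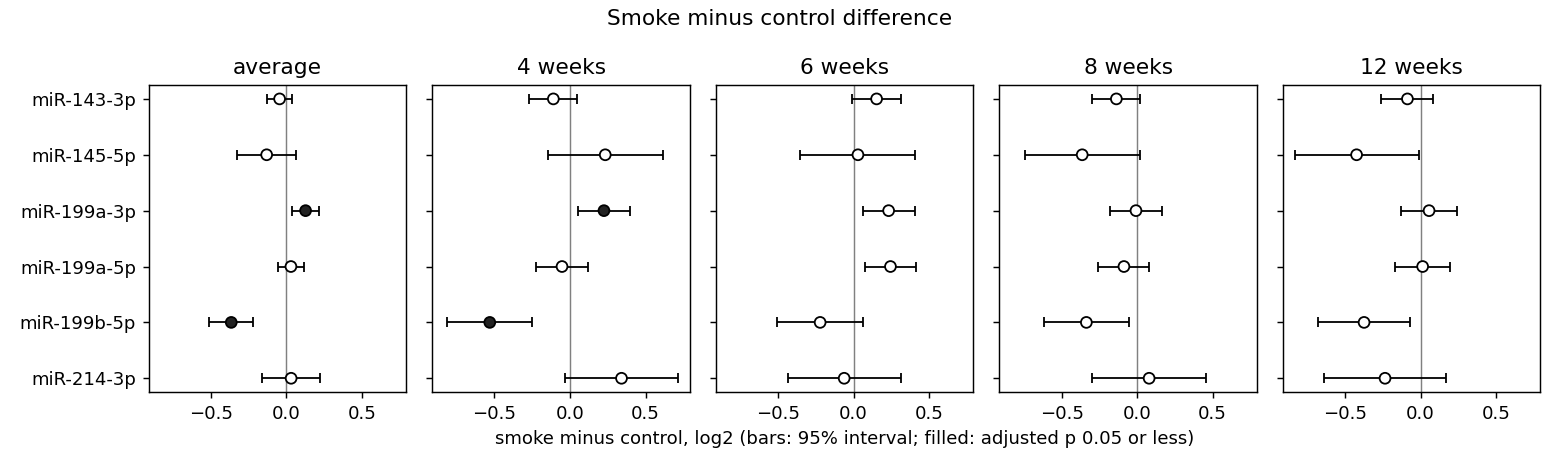
Smoke minus control difference in log2 units for the 6 miRNAs, averaged over durations and at each duration, with 95% intervals from the model. Filled points passed at an adjusted p of 0.05 or less: miR-199b-5p below 0 and miR-199a-3p above 0, each in the average and at 4 weeks.

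In counts, 2 of the 6 passed in the average, 1 in each direction, where 27.6% of the 272 did (15.4% higher and 12.1% lower), and 2 of 6 at 4 weeks, again 1 in each direction, where 38.2% did (26.8% higher and 11.4% lower). At 6, 8 and 12 weeks none passed by limma (8.09%, 10.7% and 9.19% of the 272). At an unadjusted p under 0.05 there were 2, 1 and 2 of the 6, against 53, 65 and 70 of the 272. The median difference of the 6 was -0.01 in the average against -0.01 for all tested. By duration it was 0.09, 0.09, -0.11 and -0.16 at 4, 6, 8 and 12 weeks, against 0.17, 0.01, -0.05 and -0.08. None of the 6 passed the tests for a smoke difference that changes with duration (6.62% of the 272), for differences between durations among controls (6.99%) or among smoke samples (3.31%). At an unadjusted p under 0.05 there were 1, 3 and 1. By p-value over the 272 these ranked 81 in the first test, 44, 53 and 54 in the second and 39 in the third. The lowest adjusted p-values in these tests, 0.122, 0.117 and 0.126, were those of miR-199a-5p.

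Deviations of the arrays from their group means showed which of the 6 moved together apart from the exposure. MiR-199a-5p and miR-199b-5p had a Pearson r of 0.87 and a Spearman rho of 0.73 over the 31 arrays (permutation within groups, adjusted p = 0.00247 and 0.00443 over the 15 pairs), and r was 0.68 without the 2 farthest arrays. MiR-145-5p and miR-214-3p, from different transcripts, had r = 0.85 and rho = 0.87 (permutation, adjusted p = 0.00112 and 9e-04; r = 0.84 without the 2 farthest). MiR-199a-3p and miR-214-3p had r = 0.84 and rho = 0.78 (permutation, adjusted p = 0.00112 and 0.00443; 0.82 without them). MiR-145-5p and miR-199a-3p had r = 0.72 and rho = 0.70 (permutation, adjusted p = 0.00247 and 0.00443, 0.64 without them). MiR-145-5p and miR-199b-5p moved oppositely, with r = -0.76 and rho = -0.61 (permutation, adjusted p = 0.0108 and 0.045, -0.60 without them). The remaining pairs did not pass by either measure. MiR-143-3p and miR-145-5p, from a shared transcript, had r = 0.08 and rho = 0.23 (permutation, adjusted p = 0.853 and 0.517; 0.22 without them), and the arms miR-199a-3p and miR-199a-5p r = -0.23 and rho = 0.04 (permutation, adjusted p = 0.594 and 0.920; -0.08 without them). All values share a scaling per array. The leading component of the 207 miRNAs detected on every array (47.5% of their variance), which was highest in smoke arrays 2 and 3 of 4 weeks, correlated within groups at 0.95 with miR-214-3p, 0.90 with miR-199a-3p, 0.88 with miR-145-5p, -0.46 with miR-199a-5p, -0.74 with miR-199b-5p and -0.17 with miR-143-3p. The log2 75th percentile that scales each array correlated within groups at -0.85 with miR-214-3p, -0.76 with miR-145-5p and -0.66 with miR-199a-3p. With miR-199b-5p it was 0.55, with miR-199a-5p 0.51 and with miR-143-3p -0.23. The part of these in the correlations was not tested. Nor was it tested how far probes that read both miR-199a-5p and miR-199b-5p would add to the correlation of that pair.

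**Figure D4:**
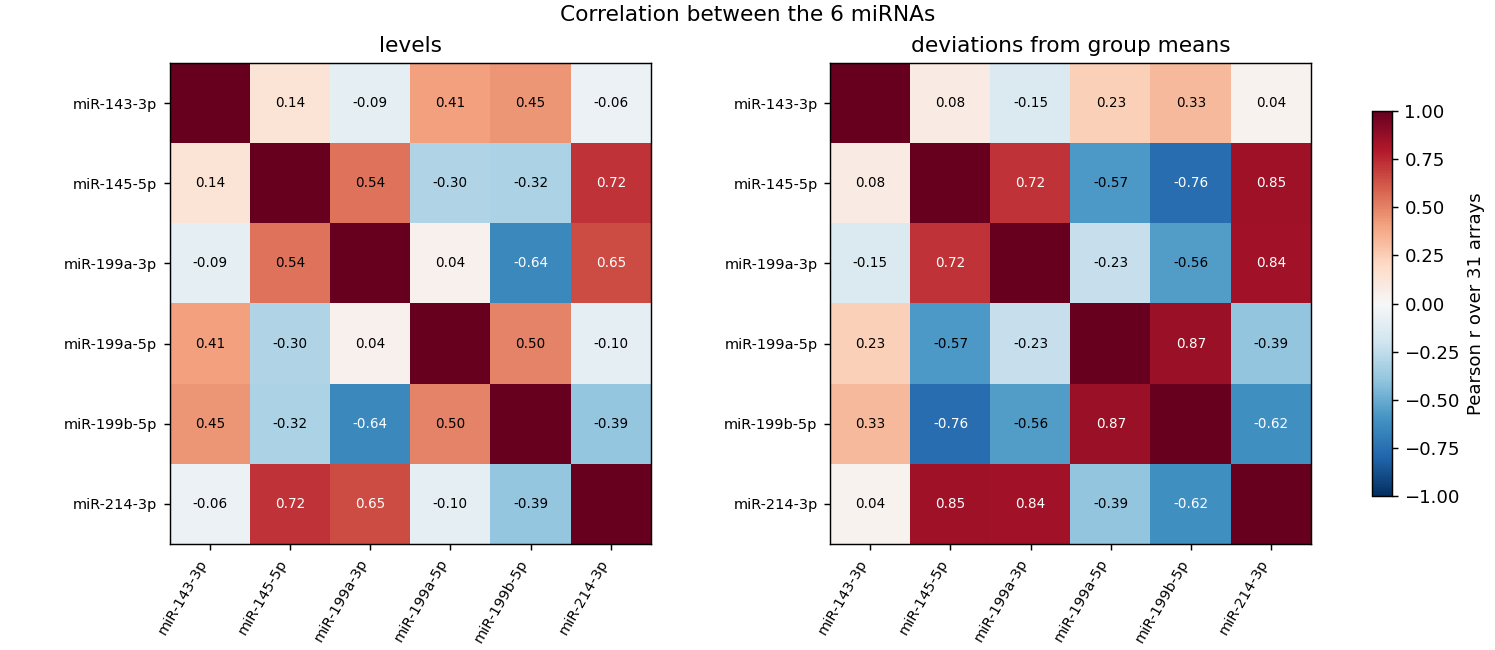
Pearson r between the 6 miRNAs over 31 arrays, for levels (left) and for deviations from group means (right), on a colour scale from -1 to 1. Within groups miR-145-5p, miR-199a-3p and miR-214-3p correlate at 0.72 to 0.85, miR-199a-5p with miR-199b-5p at 0.87, and miR-143-3p with the others at -0.15 to 0.33.

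Among the 207 miRNAs detected on every array, those whose levels followed the 6 most closely over the 31 arrays were mostly outside the group. MiR-199b-5p was nearest to miR-362-3p (r = 0.92) and miR-24-1-5p (0.91), and miR-199a-5p to miR-500-3p (0.88). MiR-199a-3p was nearest to let-7g-5p (0.92), miR-214-3p to miR-320-3p (0.93), miR-145-5p to miR-125b-5p (0.91) and miR-143-3p to miR-140-5p (0.73). These values are descriptions of 31 arrays that share smoke and duration.

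Of 14 related miRNAs, other arms of the same hairpins and miRNAs known from mesenchymal cells, 12 were on the array and tested. In the average 2 were higher, 1 was lower and 9 did not pass, with a median of -0.04, so that 25% passed against 27.6% of all tested miRNAs, a share near the background. The higher ones were miR-21-5p (1.20 log2), widely known from inflamed and fibrotic tissue, and miR-22-3p (0.19), and the lower was miR-140-5p (-0.15, adjusted p = 0.0496), known from cartilage and mesenchyme. At 4 weeks 33.3% passed against 38.2% of all tested: miR-21-5p (0.97) and miR-22-3p (0.29) were higher and miR-140-5p (-0.34) and miR-29b-3p (-1.08), of a family known to repress collagens, were lower. At 6 weeks miR-21-5p (1.29) and miR-29a-3p (0.24) were higher, at 8 weeks miR-21-5p (1.08) was higher and miR-152-3p (-0.33) lower, and at 12 weeks miR-21-5p (1.44) alone passed. These were 16.7%, 16.7% and 8.33% of the 12, against 8.09%, 10.7% and 9.19% of all tested. The other arms miR-145-3p (-0.08, detected on 14 arrays) and miR-214-5p (0.04, on 8) did not pass in the average.

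Of 20 tested miRNAs known from other cell types, 5 passed in the average, 25% against 27.6% of all tested miRNAs, a share near the background. Of 5 leukocyte miRNAs in the average, miR-155-5p was higher (0.54) and miR-142-3p and miR-142-5p lower (both -0.65). The log2 of their summed scaled signals was 2.35 to 3.43 with smoke and 2.82 to 3.36 in controls. Such sums, also given for the lists below, mostly follow the miRNAs with the brightest probes. Of 6 epithelial miRNAs, miR-429-3p was higher (0.27), with a sum of 2.65 to 3.08 against 2.58 to 2.89. Of 2 endothelial miRNAs, miR-126-3p was lower (-0.13), with a sum of 4.71 to 5.02 against 4.77 to 5.21. None of the 4 tested striated muscle miRNAs of 6 (0.44 to 2.81 against -0.21 to 2.74; miR-499-5p was detected on 0 arrays) and of 2 erythroid miRNAs (5.93 to 6.39 against 5.72 to 6.52) passed in the average. The liver miRNA miR-122-5p was at the floor of -6.74 on all control arrays and reached 1.57 on a 12 weeks smoke array. At 4 weeks 11 of the 20 passed, 55% against 38.2%. There miR-133a-3p (-0.93) and miR-133b-3p (-0.98) of striated muscle were lower (sum 0.72 to 0.90 with smoke and 0.87 to 2.74 in controls), and so was the erythroid miR-144-3p (-1.31; sum 6.00 to 6.11 against 5.72 to 6.06). Of the epithelial list miR-200b-3p (0.43), miR-200c-3p (0.57) and miR-429-3p (0.37) were higher and miR-205-5p (-1.40) lower (sum 2.76 to 3.08 against 2.58 to 2.73). Of the leukocyte list miR-223-3p (0.76) and miR-155-5p (0.86) were higher and miR-142-3p (-1.28) and miR-142-5p (-1.06) lower (sum 2.35 to 3.07 against 3.17 to 3.22). Their part in the differences of miR-199b-5p and miR-199a-3p was not tested. Without the 3 arrays highest in muscle miRNAs the average of miR-199b-5p was -0.37 (adjusted p = 0.00127) and that of miR-199a-3p 0.14 (0.0172), while at 4 weeks both calls were lost at about the same size (-0.54, adjusted p = 0.0632, and 0.22, 0.153).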

How the data were processed

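Per the file headers, Feature Extraction 10.7.3.1 made the scanner intensity of each spot (background subtracted, then detrended, with no normalization between arrays) and its quality marks. The authors also deposited a table of log2 values per miRNA with no stated normalization in the sources used here; its scale and direction were taken from its correlation with the scaled signals (0.981 to 0.985 per array), and how it was centred stays unknown (array medians 2.71 to 2.85). The 6 miRNAs and the lists were chosen with earlier results of these data known.

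Control spots and outlier spots (297 to 655 of the 13000 other spots per array) were left out and a probe's spots averaged. A probe was detected where 50% of its spots were above background, and the 75th percentile of the 385 probes that were detected on all 31 arrays scaled each array. These percentiles ran from 1018 to 3725, and the number of arrays limits the precision. Signals under log2 -6.74 were set to that floor. Tests were run on miRNAs that at least 1 group had on 75% of its arrays. Differences were fitted in R 4.3.3 with limma 3.58.1 over all 31 arrays with a mean per group (23 residual degrees of freedom), adjusted by Benjamini-Hochberg over 272 miRNAs. Pairs of miRNAs on shared or related hairpins were tested by permuting labels within durations. The limma fit was tried on simulated data with independent noise for each miRNA and array, which lack the leading component that these arrays share. All 6 miRNAs were named in every comparison, related miRNAs by counts with those that passed, and the nearest by Pearson r. The alternatives changed scaling, filter, floor, probe, background correction, blocks and arrays. The normexp alternative used the median signal. No pair of arrays was identical.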

Additional observations from a re-analysis of the deposited data

Results flagged for a closer look

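MiR-199a-3p at 6 weeks of smoke had a sample far from the others of its group. The third array read 1.84 log2 and the other arrays 1.92, a small distance in a tight group, and all 4 lay above the control arrays, as for 15.8% of the 272. Of 42 groups of 4 arrays examined for the 6 miRNAs this was the only such case, and chance alone gives about 1 in 20 groups.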

How the results depend on the processing

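Of 35 single results and their alternatives, including leaving out each of the 31 arrays, 1618 of 1694 repeats kept their direction and side of the threshold or changed sign without a call (70), 43 newly passed, 29 lost the call and 4 reversed with a call on either side. The reversals were miR-199a-3p in the average (-0.020) and miR-214-3p at 8 weeks (-0.74) without scaling, and, with the leading component as a covariate (chosen after seeing the data), miR-214-3p in the average (-0.088) and miR-214-3p minus miR-199a-5p (-0.14). The cause was not tested. The averaged call of miR-199b-5p was lost in 1 of 17 alternatives, no scaling. Both pairs with miR-199b-5p kept theirs in all that were run (normexp -0.30 against miR-199a-5p, permutation, adjusted p = 0.00537). For the pairs, no scaling and the percentile over all probes could not change the outcome, since a scaling factor cancels within an array. The higher floor also left the pair values unchanged.

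Of the 6 miRNAs, 2 passed in the average (miR-199a-3p and miR-199b-5p), but 0 without scaling, 1 (miR-199b-5p) without the detection filter or with normexp and 4 with the component. A count of 2 was not always the same miRNAs: with the summed signal they were miR-143-3p (-0.11) and miR-199b-5p, and without smoke arrays 2 and 3 of 4 weeks miR-145-5p (-0.23) and miR-199b-5p. At 4 weeks 2 passed, but 1 with quantile scaling, the summed signal, no filter or the slide as a block, and 0 with the percentile over all probes, no scaling, normexp, that duration fitted alone, without smoke arrays 2 and 3 of 4 weeks, without the muscle-rich arrays or with the component. At 6 weeks 0 passed, but 2 with the summed signal, 1 with the mean of probes, the second probe or the series table, 3 without smoke arrays 2 and 3 of 4 weeks and 2 with the component. At 8 weeks 0 passed, but 1 with the percentile over all probes, that duration alone or without those arrays, 6 without scaling, 3 with the summed signal and 2 with the component. At 12 weeks 0 passed, but 1 with the summed signal, the series table, that duration alone or without those arrays and 2 with the component. For a smoke difference that changes with duration, 0 became 3 without scaling, 3 with the summed signal and 1 with the component. Among control durations 0 became 1 with the percentile over all probes, 4 without scaling, 2 with the summed signal, 3 without those arrays and 3 with the component. Among smoke durations 0 became 1 with the component. Among the 5 pairs 2 became 4 with the component. MiR-199a-3p minus miR-199a-5p also passed with quantile scaling, the second probe and the series table. MiR-143-3p minus miR-145-5p also passed without smoke arrays 2 and 3 of 4 weeks. Without scaling the median of all tested miRNAs moved to -0.86 at 8 weeks. The number of all tested miRNAs that passed also changed with the setting. In the average 75 of the 272 passed in the main fit, fewer without scaling or with normexp and more with the component. At 4 weeks 104 of the 272 passed in the main fit, and fewer in each setting where 0 of the 6 did. The counts of the 6 were not tested against these backgrounds, so they show no change particular to the 6.

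With each array left out in turn, 2 to 2 passed in the average, 1 to 3 at 4 weeks, 0 to 2 at 6, 0 to 1 at 8 and 0 to 1 at 12 weeks, 0 to 0 for a changing difference, 0 to 1 among control and 0 to 1 among smoke durations, and 2 to 2 of the pairs. Smoke array 2 of 4 weeks decided the most of these, 1 each at 8 and 12 weeks and among control durations and 2 at 6 weeks, and smoke array 1 of 4 weeks that among smoke durations. Samples with the same replicate number deviated together (r over 0.1) in 9 of 15 pairs (-0.47 to 0.54). At 4, 6 and 8 weeks the number is also the slide, so number and slide cannot be told apart there. At 12 weeks the control numbers fall on other slides, and r was 0.17, -0.42 and -0.47. The main fit did not take the numbers as pairs, and number and slide were blocks in the alternatives. With the replicate number as a block 1 of the 6 passed at 4 weeks, since miR-199a-3p did not (adjusted p = 0.0547), and miR-199b-5p in the average was at -0.37 (adjusted p = 0.000449).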
